A study of Homo sapiens with 4 samples.

Results

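Replication-dependent histone genes encode the linker histone H1 and the core histones H2A, H2B, H3 and H4 that package newly made DNA. They were selected here as every gene in the expression tables whose symbol starts with HIST1H, HIST2H, HIST3H or HIST4H, where the digit is the number of the genomic cluster. 62 of the 16878 listed genes fitted this rule: 6 for H1, 16 for H2A, 16 for H2B, 12 for H3 and 12 for H4. By cluster, 47 belonged to cluster 1 on chromosome 6, 11 to cluster 2 and 3 to cluster 3, both on chromosome 1, and 1 to cluster 4.

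RNA sequencing was done on PANC-1 cells, an established line from a human pancreatic ductal carcinoma. The design had a Control group and a siSIRT1 group, with 2 libraries each, and siRNA against the deacetylase SIRT1 was the factor that differed; cells were taken 48 h after transfection. The cell line was shared by both groups, and no siRNA dose, batch or kind of control transfection was given. Nothing in the labels says that the libraries of a group came from separate cultures, so the p-values measure the spread between these libraries, which may be technical. SIRT1 itself was at 10.46 and 10.25 FPKM (read fragments divided by transcript length in kilobases and by library size) in Control, against 1.80 and 2.05 in siSIRT1, so the labels and the targeted gene went the same way.

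In dividing cells the replication-dependent histone genes are transcribed in S phase, in a nuclear body organised by NPAT. Their mRNAs are the known exception among animal mRNAs in that they usually end in a stem-loop and carry no poly(A) tail. The stem-loop is bound by SLBP, and the U7 snRNP, which contains LSM10 and LSM11, directs the cut behind it. Some of these genes also make longer, polyadenylated transcripts, which are known from differentiated and arrested cells. A library made by poly(A) selection would hold mostly the tailed form, and whether these libraries were made that way is not given in the sources used here. Of 18 RNAs fixed as a check because they lack a tail, 0 were listed in the tables, so that check could not be made.

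The stem-loop was searched as GG, any 2 bases, CTTTT, any base, AG, any 2 bases and CC, within 150 bases behind the stop codon of 58 members with a GENCODE transcript model. It was found in 55, starting 23 to 68 bases behind the stop codon, and was not found in HIST1H2BI, HIST1H3E and HIST1H4L. The sites of the members that the results turn on are shown on the coding strand from the reference genome GRCh37, with the stem-loop in capitals, because this 3' end takes the place of a poly(A) tail.

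HIST1H2AC (chr6:26124892-26124917, + strand): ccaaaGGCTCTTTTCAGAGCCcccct
HIST1H1C (chr6:26055967-26055992, - strand): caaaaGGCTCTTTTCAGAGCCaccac
HIST1H2AK (chr6:27805658-27805683, - strand): aaaaaGGTTCTTTTCAGAGCCaccta
HIST2H2BF (chr1:149783435-149783460, - strand): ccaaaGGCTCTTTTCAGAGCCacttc
HIST1H2BK (chr6:27114140-27114165, - strand): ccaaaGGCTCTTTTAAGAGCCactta
HIST1H4C (chr6:26104540-26104565, + strand): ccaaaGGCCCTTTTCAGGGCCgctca

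The form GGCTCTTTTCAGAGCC, seen in HIST1H2AC, HIST1H1C and HIST2H2BF, was held by 34 members. All 10 H4 members with a site had GGCCC as the first arm of the stem, and none of the 45 other members did. HIST1H2AK had an arm, GGTTC, that no other member had.

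Promoter windows of 250 bases before to 50 bases behind the RefSeq start site were available for 57 members. The octamer ATTTGCAT, the motif of the factor POU2F1 and known from H2B promoters, was in 23 of them (40.4%), searched on both strands, against 1.80% of all 27305 promoter windows. It was in 12 of 16 H2B and 10 of 15 H2A windows, in 1 of 10 H3 windows and in no H1 or H4 window. The H2A and H2B windows of neighbouring genes overlap, so a single octamer can count for both genes. CCAAT was in 49 of 57 windows (86.0%) against 35.7% of all, and only 2 of the 10 H4 windows had it. TATAAA was in 38 of 57 (66.7%) against 12.0%. The 3 octamer sites below, in GRCh38.p14 coordinates with the octamer in capitals, belong to the most abundant H2B gene, HIST1H2BK, which did not pass the test below, and to HIST2H2BE and HIST1H2BC, which were near 4 FPKM and fell.

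HIST1H2BK (chr6:27146889-27146912, - strand): ttcaccttATTTGCATgagaggtc
HIST2H2BE (chr1:149886713-149886736, - strand): gagccctaATTTGCATaaggtggt
HIST1H2BC (chr6:26124034-26124057, - strand): catacctcATTTGCATagctctgc

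Most members were barely measurable. Of 62 members, 50 were above 0 in every library, 42 averaged 1 FPKM or more and were tested, and 20 were below that mean. From the smallest steps between low FPKM values, the libraries were estimated to hold 8750000 to 9250000 reads, and by that estimate 17 of 58 members had 10 or more reads in every library and 1 had 100 or more. A count of 0 then allows up to 3 reads, which for HIST1H1T, the testis H1 gene and the only member listed at 0 in all 4 libraries, is 0.512 to 0.541 FPKM. Each estimate used the length of 1 GENCODE transcript per gene. Where the listed FPKM rests on a longer transcript, the reads are underestimated. HIST1H2BK, HIST2H2BF and HIST1H2BD, for example, have 2 listed RefSeq transcripts. Estimated reads and this limit cover counting error only.

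3 pairs of members had the same value in every library: HIST2H2AA3 with HIST2H2AA4, HIST2H4A with HIST2H4B, and HIST2H3A with HIST2H3C. The H4 genes of that list share every 50-base stretch of their transcripts, and HIST2H3A shares all of its own with HIST2H3C, so each pair is a single measurement and the 42 tested members are 39 measurements. The sums below add the rows of both genes of a pair. HIST1H2AI was at 2.15, 0, 2.49 and 0 FPKM in Control 1, Control 2, siSIRT1 1 and siSIRT1 2, and HIST1H2AJ was at 0, 2.57, 0 and 1.15 FPKM. Wherever one of these genes was above 0 the other was at 0. They share 63.5% of the 50-base stretches of HIST1H2AI, and only their sum, 2.36 ± 0.30 (SD, n = 2) FPKM in Control and 1.82 ± 0.95 (SD, n = 2) in siSIRT1, is read as a level here. HIST1H2AJ was below the filter, and HIST1H2AI is kept in the counts of tested members, but its own fold change is not read.

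The summed level of all 62 members was 402.22 and 386.29 FPKM in Control, against 316.09 and 303.25 FPKM in siSIRT1, 78.5% of Control. The groups did not overlap. These sums were 0.1% and 0.0973% of all FPKM in Control replicates 1 and 2, against 0.0742% and 0.0743% in the siSIRT1 libraries. An exact two-sided permutation test of the sum gave p = 0.333, the smallest that 2 libraries against 2 allow. HIST1H2BK was the largest part of this sum, and without it the sum was 270.9 ± 3.9 (SD, n = 2) FPKM in Control and 190.6 ± 8.6 (SD, n = 2) in siSIRT1, 70.3% of Control.

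**Figure D1:**
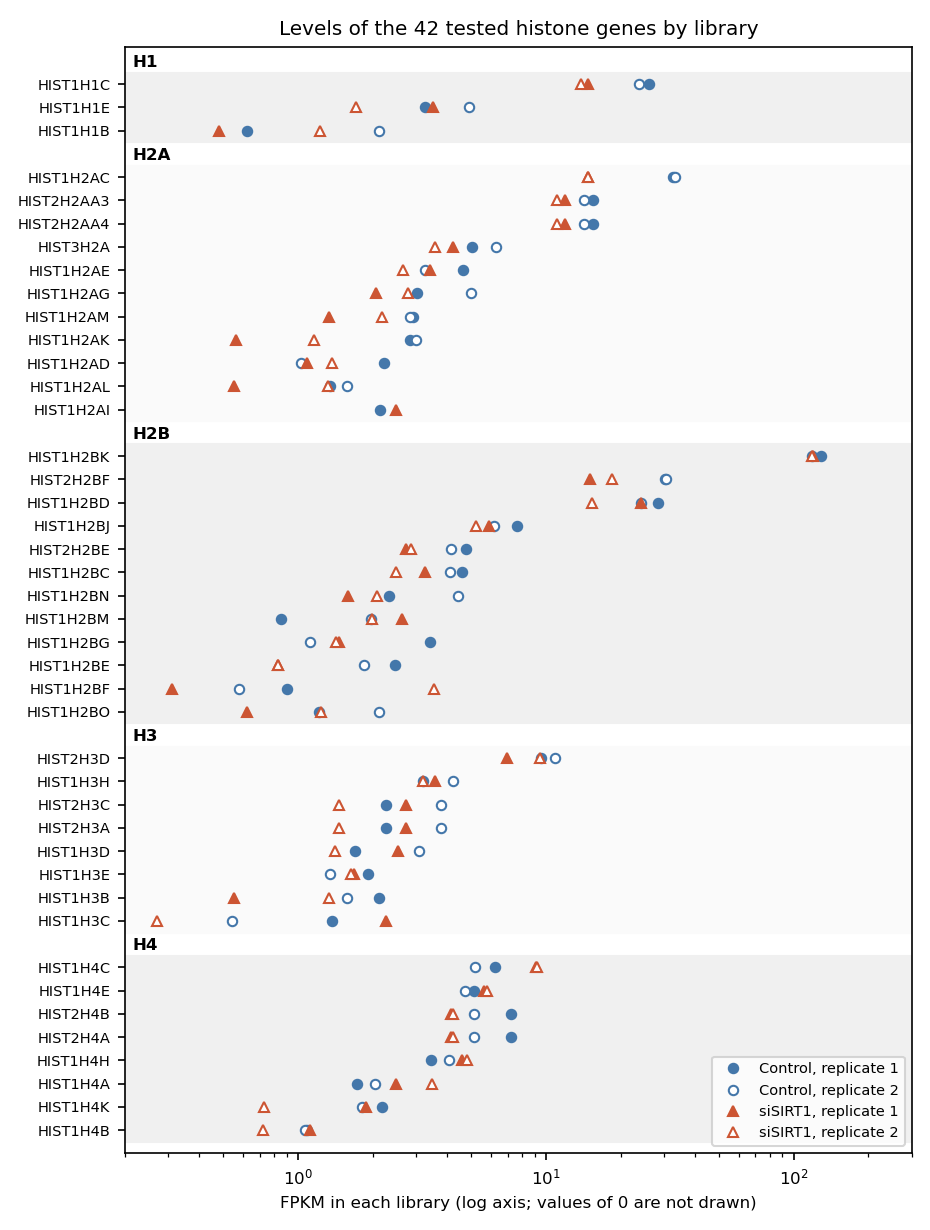
FPKM of the 42 tested histone genes in each of the 4 libraries, on a log axis, grouped by histone type and ordered by mean level. Circles are Control and triangles siSIRT1. HIST1H2BK stands alone near 120 FPKM, and both siSIRT1 values lie left of both Control values for HIST1H1C, HIST1H2AC and HIST2H2BF.

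In siSIRT1, 13 of the 42 tested members fell and 1 rose (limma on log2(FPKM + 1), Benjamini-Hochberg adjusted p under 0.05 over all 12191 tested genes). Over all tested genes 37.1% passed the test, 13.1% as lower and 24.0% as higher. Among the members 31.0% passed as lower and 2.38% as higher, so the share that passed was close to that of all genes and the directions were distributed differently. With each identical pair as a single measurement, 11 of 39 fell and 1 rose. The median log2 fold change of the 42 members was -0.36, against 0.07 over all tested genes, and 33 members had a negative and 9 a positive fold change. Both siSIRT1 values lay below both Control values in 19 members (25.2% of all tested genes) and above them in 5 (43.8% of all tested genes), and the groups did not overlap in 69.0% of all tested genes. In bulk RNA, fewer cells in S phase and less histone mRNA per cell cannot be told apart.

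**Figure D2:**
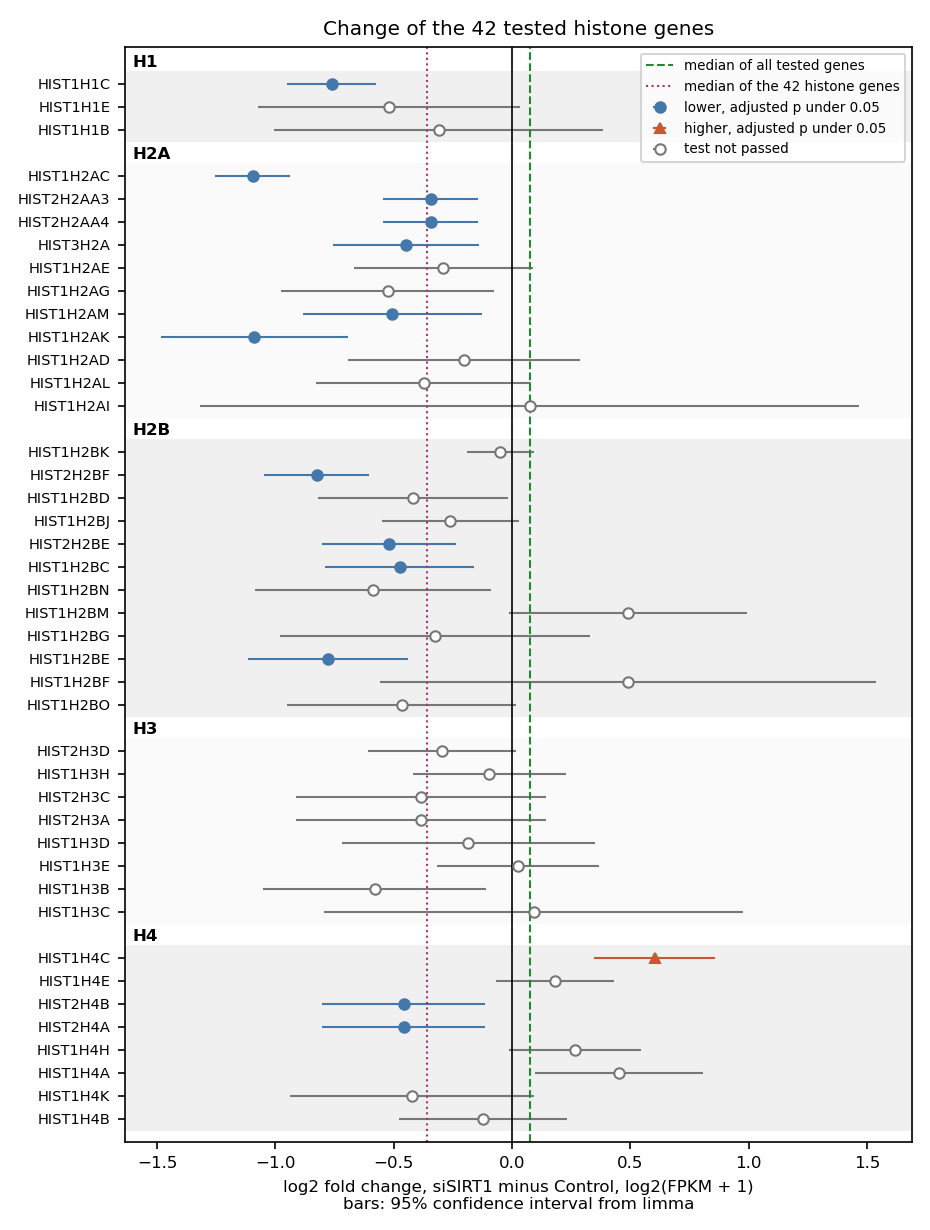
Log2 fold change of siSIRT1 minus Control on the log2(FPKM + 1) scale for the 42 tested histone genes, with the 95% confidence interval from limma. Filled circles fell and the filled triangle, HIST1H4C, rose. Dashed line, median of all tested genes at 0.07; dotted line, median of the histone genes at -0.36.

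The share of members that passed the test followed their level. Of the 7 members with a mean of at least 10 FPKM, 5 fell and 0 rose, where 16.1% of all genes at that level fell and 32.6% rose. Of the 14 with 3 to 10 FPKM, 5 fell and 1 rose, where 10.5% of all genes at that level fell and 16.0% rose. Of the 21 with 1 to 3 FPKM, 3 fell and 0 rose, where 8.48% of all genes at that level fell and 13.2% rose. The falls of the first group hold both HIST2H2AA3 and HIST2H2AA4, and those of the second both HIST2H4A and HIST2H4B. Each pair is a single measurement. The median standard error of the log2 fold change was 0.088 for the first of these groups and 0.22 for the last, so at the lowest levels a fall of the members' median size was less than 2 standard errors.

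Among H1 genes, which encode the linker histone that binds DNA between nucleosomes, HIST1H1C carried most of the signal. It was at 26.18 and 23.75 FPKM in Control, against 14.77 and 13.85 FPKM in siSIRT1, about 79.7 to 150.9 reads by the estimate. It fell by 0.76 on the log2 scale (SE 0.082, limma adjusted p = 2.55e-04). HIST1H1E was at 3.25, 4.91, 3.51 and 1.71 FPKM and HIST1H1B at 0.62, 2.13, 0.48 and 1.23 FPKM, in the order Control 1, Control 2, siSIRT1 1 and siSIRT1 2; for both the groups overlapped and the test was not passed. HIST1H1A and HIST1H1D did not exceed 0.78 FPKM in any library. The summed H1 level was 30.7 ± 0.1 (SD, n = 2) FPKM in Control and 18.4 ± 1.2 (SD, n = 2) in siSIRT1.

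The H2A genes had the largest share of falls, 6 of 11 tested (54.5%, or 5 of 10 measurements) and 0 rises. Of all tested genes 13.1% fell and 24.0% rose. HIST1H2AC was at 32.42 and 33.08 FPKM in Control, against 14.77 and 14.81 FPKM in siSIRT1. This is 45.2% of Control, a log2 fold change of -1.10 (SE 0.070, adjusted p = 1.92e-05), and its adjusted p was the lowest of any member. HIST1H2AK fell by 1.09 (SE 0.17, adjusted p = 0.00168), from 2.82 and 2.99 FPKM to 0.56 and 1.16 FPKM. The groups were far apart, but the values stood for about 10.3, 11.2, 2.0 and 4.2 estimated reads.

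The value listed for each of HIST2H2AA3 and HIST2H2AA4, 2 copies of an H2A gene in cluster 2, was 15.43 and 14.25 FPKM in Control, against 11.89 and 11.08 FPKM in siSIRT1. It fell by 0.34 on the log2 scale (SE 0.088, adjusted p = 0.0155), and without Control replicate 1 the adjusted p was 0.154 and without Control replicate 2 it was 0.0521. HIST3H2A, from cluster 3, was at 5.05 and 6.29 against 4.2 and 3.56 FPKM (adjusted p = 0.0310), and HIST1H2AM was at 2.91 and 2.82 against 1.33 and 2.18 FPKM (adjusted p = 0.0423). The call of HIST3H2A was lost without Control replicate 2 (adjusted p = 0.244) or siSIRT1 replicate 2 (adjusted p = 0.113), and that of HIST1H2AM without Control replicate 1, Control replicate 2 or siSIRT1 replicate 1 (adjusted p = 0.109 to 0.156). Beside HIST1H2AI, 4 tested H2A members did not pass. HIST1H2AG was at 3.02, 4.97, 2.07 and 2.77 FPKM (log2 fold change -0.53, adjusted p = 0.0658), without overlap, and HIST1H2AL, HIST1H2AE and HIST1H2AD had log2 fold changes of -0.37, -0.29 and -0.20. Together the 16 H2A genes were at 89.0 ± 0.7 (SD, n = 2) FPKM in Control and 54.8 ± 0.8 (SD, n = 2) in siSIRT1, 61.5% of Control.

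The H2B genes held the most abundant member and the widest range of levels. HIST1H2BK was at 128.54 and 118.10 FPKM in Control, against 119.43 and 118.72 FPKM in siSIRT1, about 423 to 468 estimated reads. The groups overlapped, and the log2 fold change of -0.05 had a 95% confidence interval from -0.19 to 0.09 (adjusted p = 0.578). HIST1H2BK was 31.3% of the summed level of all members in Control and 38.5% in siSIRT1. Its interval did not include the fall of HIST1H2AC, HIST1H1C or HIST2H2BF.

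HIST2H2BF, an H2B gene of cluster 2, was at 30.37 and 30.40 FPKM in Control, against 15.07 and 18.53 FPKM in siSIRT1. It fell by 0.83 on the log2 scale (SE 0.097, adjusted p = 3.88e-04). HIST1H2BE fell by 0.78 (SE 0.15, adjusted p = 0.00413), from 2.45 and 1.85 FPKM to 0.83 and 0.83 FPKM. These values stood for only about 8.4, 6.5, 2.8 and 2.8 estimated reads. HIST2H2BE was at 4.78 and 4.13 against 2.73 and 2.86 FPKM (adjusted p = 0.0111, and 0.108 without Control replicate 1), and HIST1H2BC at 4.59 and 4.11 against 3.24 and 2.49 FPKM (adjusted p = 0.0265). The call of HIST1H2BC was lost without Control replicate 1 (adjusted p = 0.154), Control replicate 2 (0.0620) or siSIRT1 replicate 2 (0.0915). HIST2H2BF shares 36.1% of its 50-base stretches with other genes, mostly HIST2H2BE, and HIST1H2BE 14.7% with HIST1H2BK, so the split of reads within these pairs is uncertain.

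HIST1H2BD was at 28.37, 24.15, 24.29 and 15.34 FPKM. The low value came from siSIRT1 replicate 2, the groups overlapped, and the test was not passed (adjusted p = 0.0953). HIST1H2BM and HIST1H2BF were the 2 H2B members with a positive fold change, at 0.85, 1.96, 2.63 and 1.98 FPKM and at 0.90, 0.58, 0.31 and 3.52 FPKM; neither passed. The value of HIST1H2BF rested on siSIRT1 replicate 2 alone. HIST1H2BJ was at 7.65 and 6.16 against 5.92 and 5.24 FPKM, without overlap (log2 fold change -0.26, adjusted p = 0.143), and HIST1H2BN, HIST1H2BO and HIST1H2BG had log2 fold changes of -0.59, -0.47 and -0.33 that did not pass. Without HIST1H2BK the 15 other H2B genes summed to 87.0 ± 2.5 (SD, n = 2) FPKM in Control and 58.4 ± 2.0 (SD, n = 2) in siSIRT1, 67.1% of Control.

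None of the 8 tested H3 members passed the test, where 37.1% of all tested genes did. HIST2H3A and HIST2H3C, a single measurement, both count among the 8. An unadjusted limma p under 0.05 was seen in 1 of the 8, and in 5696 of all 12191 tested genes. The tested H3 members had a median level of 2.365 FPKM and a median standard error of 0.22, against 10.3 FPKM and 0.10 for all tested genes. HIST2H3D, the most abundant, was at 9.54 and 10.93 FPKM in Control, against 6.99 and 9.44 FPKM in siSIRT1, a log2 fold change of -0.30 with an interval from -0.61 to 0.02. HIST1H3B was at 2.13 and 1.58 against 0.55 and 1.33 FPKM, without overlap (log2 fold change -0.58, adjusted p = 0.0563). It passed under median-of-ratios scaling (adjusted p = 0.0431) and with equal FPKM sums (0.0498). The value listed for each of HIST2H3A and HIST2H3C was 2.27 and 3.77 against 2.72 and 1.46 FPKM. HIST1H3H, HIST1H3D, HIST1H3E and HIST1H3C had log2 fold changes from -0.19 to 0.09, with intervals that reached from -0.80 to 0.98 for HIST1H3C. The 12 H3 genes summed to 29.5 ± 3.2 (SD, n = 2) FPKM in Control and 24.4 ± 3.4 (SD, n = 2) in siSIRT1. The libraries were at 27.26 and 31.83 FPKM against 26.78 and 22.04 FPKM, which do not overlap, but the nearest values of the groups were closer than the libraries within either group.

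The H4 genes went both ways. HIST1H4C was at 6.23 and 5.19 FPKM in Control, against 9.13 and 9.19 FPKM in siSIRT1. It was the only member that rose, by 0.60 on the log2 scale (SE 0.11, adjusted p = 0.00355). HIST1H4A was at 1.73 and 2.05 against 2.49 and 3.46 FPKM, HIST1H4H at 3.44 and 4.08 against 4.60 and 4.82 FPKM, and HIST1H4E at 5.11 and 4.72 against 5.61 and 5.80 FPKM. In these 3 genes too the siSIRT1 values lay above those of Control, but the adjusted p values were 0.0505, 0.123 and 0.229. The value listed for each of HIST2H4A and HIST2H4B fell, from 7.26 and 5.11 FPKM to 4.15 and 4.2 FPKM (log2 fold change -0.46, SE 0.15, adjusted p = 0.0429). That call was lost without Control replicate 1 (adjusted p = 0.361) and without either siSIRT1 library (0.123 and 0.108). HIST1H4K, at 2.19, 1.81, 1.88 and 0.73 FPKM, and HIST1H4B, at 1.09, 1.07, 1.12 and 0.72 FPKM, had log2 fold changes of -0.42 and -0.12 and did not pass. The 12 H4 genes summed to 34.6 ± 4.0 (SD, n = 2) FPKM in Control and 34.6 ± 1.2 (SD, n = 2) in siSIRT1.

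**Figure D3:**
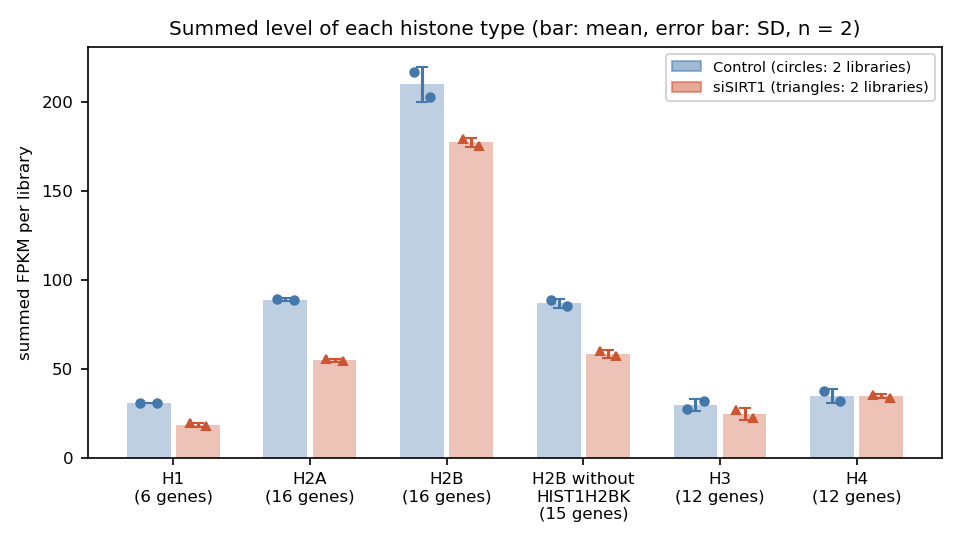
Summed FPKM of all listed genes of each histone type, with H2B also shown without HIST1H2BK. Bars are means of 2 libraries, error bars the SD, circles the Control libraries and triangles the siSIRT1 libraries. The H1, H2A and H2B sums of siSIRT1 lie clearly below those of Control, the H3 sums nearly meet, and the H4 sums overlap.

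Cluster 2, on chromosome 1, had all 9 tested members with a negative fold change, and 6 of them fell (4 measurements, since 2 identical pairs are among them). In cluster 1, 6 of 32 fell (18.8%) and 1 rose (3.1%). Of all tested genes 13.1% fell and 24.0% rose. The median log2 fold change was -0.38 in cluster 2 and -0.30 in cluster 1, and the difference between clusters was not tested. Cluster 2 summed to 94.0 ± 2.7 (SD, n = 2) FPKM in Control and 63.6 ± 1.4 (SD, n = 2) in siSIRT1, and cluster 1 to 291.8 ± 9.6 (SD, n = 2) and 239.6 ± 8.4 (SD, n = 2) FPKM. HIST3H2A was the only tested member of cluster 3. HIST4H4, the only member of cluster 4, was at 0.31, 0.92, 1.27 and 0.62 FPKM and was not tested. Within cluster 1, the 29 tested members with a GENCODE model lay in 3 stretches of chromosome 6 in GRCh37 (HIST1H2BF, HIST1H2BG and HIST1H4B had no model and were not placed): 16 members in chr6:26017260-26285762, with 4 falls and the rise of HIST1H4C, 3 in chr6:27100095-27115341, with 0 calls, and 10 in chr6:27775257-27861669, with 2 falls.

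Among the 58 members with a GENCODE model, 9 pairs of an H2A and an H2B gene start head to head, 194 to 251 bases apart, and so share the sequence between their start sites. Their levels could differ widely. HIST1H2AH was at 0.52, 0.77, 0 and 0.52 FPKM while HIST1H2BK, whose start lies 251 bases away, was at 118.10 to 128.54 FPKM, a ratio of 191 between the Control means. In the pair HIST1H2AC and HIST1H2BC the H2A gene was the higher, by 7.53 times in Control, and both fell. In the pair HIST1H2AK and HIST1H2BN both were near 3 FPKM in Control, with means of 2.91 and 3.37 FPKM; HIST1H2AK fell, and HIST1H2BN, at 2.33, 4.40, 1.59 and 2.08 FPKM, had a log2 fold change of -0.59 that did not pass (adjusted p = 0.0653). No tested H2A or H2B gene rose, in a pair or not, beside 24.0% of all tested genes. In 5 of the 9 pairs 1 gene was too low to be tested.

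**Figure D4:**
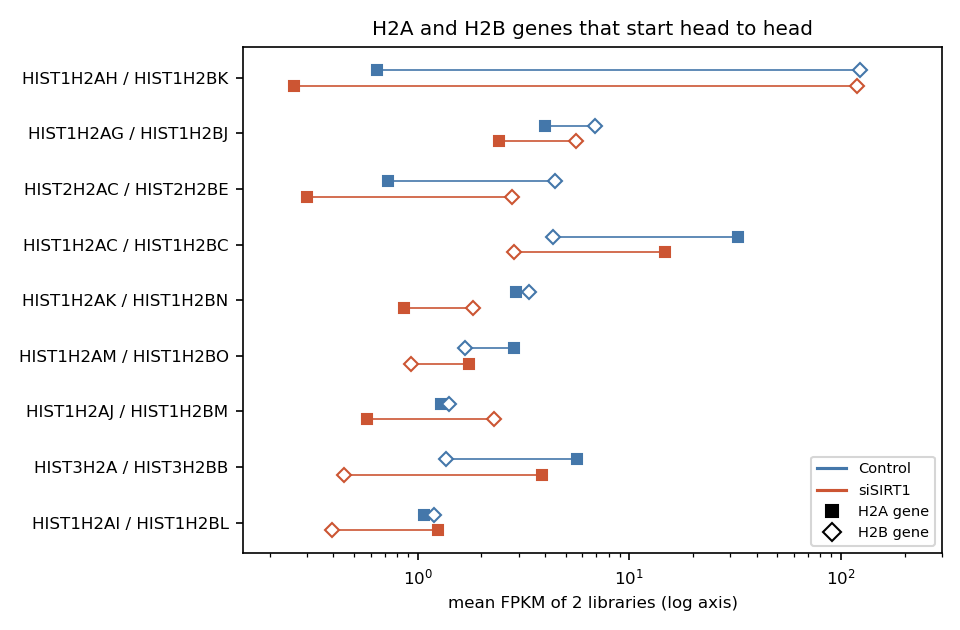
Mean FPKM of 2 libraries, on a log axis, for the 9 pairs of H2A (squares) and H2B (open diamonds) genes that start head to head, in Control and siSIRT1. The line between the symbols of a pair is longest for HIST1H2AH and HIST1H2BK, with a ratio of 191 in Control.

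Members were also split, after their values were seen, by what the annotation says of their transcripts. 18 members had at least 1 annotated transcript that is spliced or runs over 150 bases past the stop codon, or 2 listed RefSeq transcripts, and 15 of these were tested: 8 fell and 0 rose. HIST1H2AC, with a transcript that runs 1187 bases past the stop codon, and HIST2H2BE, with 1801 bases, are among them. So are HIST2H4A and HIST2H4B, which both count as falls but are a single measurement. Of 23 tested members with only short, unspliced transcripts, 4 fell, among them HIST1H1C and HIST1H2AK, and HIST1H4C rose. In these groups 53.3% and 17.4% fell, beside 13.1% of all tested genes, and 0% and 4.35% rose, beside 24.0%. The median log2 fold changes of the groups were -0.46 and -0.34. The first group also had the higher levels, with a median of 4.78 against 2.31 FPKM, and no test of the difference was made. Among H2A and H2B genes the median log2 fold change was -0.42 for the 16 tested members with the octamer in the promoter window and -0.42 for the 7 without it.

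The 20 members below 1 FPKM summed to 12.1 ± 2.1 (SD, n = 2) FPKM in Control and 7.88 ± 1.36 (SD, n = 2) in siSIRT1. The 3 with the highest mean were HIST3H3 at 1.04, 0.52, 1.88 and 0.52 FPKM, HIST1H2AJ with the values above, and HIST3H2BB at 1.27, 1.44, 0.60 and 0.30 FPKM. These stand for a few reads each, and no change can be read from them.

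Histone genes outside this family, mostly known for polyadenylated mRNA and for expression outside S phase too, were taken from a list of variant genes. Some have a cycle of their own, as CENPA does, and H2AFX is known to make a stem-loop form as well. Of 12 such genes listed, 11 were tested, and 5 rose (45.5%) and 1 fell (9.09%), beside 24.0% and 13.1% of all tested genes. The fall was H1F0, the H1 variant known from differentiated and resting cells, from 150.61 and 141.25 FPKM to 90.78 and 84.15 FPKM (log2 fold change -0.73, SE 0.065, adjusted p = 9.92e-05). H1FX, the other H1 variant, was at 106.36, 100.35, 102.42 and 95.37 FPKM and did not pass. H2AFY, which encodes macroH2A1, rose from 60.52 and 58.44 FPKM to 96.52 and 93.77 FPKM (log2 fold change 0.67, adjusted p = 9.21e-05). H2AFX, the variant phosphorylated at DNA breaks, rose from 78.88 and 72.04 FPKM to 109.89 and 97.71 FPKM (0.45 on the log2 scale, adjusted p = 0.00210), and H2AFZ, which encodes H2A.Z, from 112.12 and 110.28 FPKM to 140.20 and 133.03 FPKM (0.29, adjusted p = 0.00475, but 0.0583 and 0.0799 without Control replicate 1 or 2).

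H2AFV, a second H2A.Z gene, was at 35.36 and 36.33 against 42.81 and 40.09 FPKM (adjusted p = 0.0402), and H2AFY2 at 1.30 and 0.96 against 2.34 and 1.68 FPKM (adjusted p = 0.0422). The calls of both were lost under median-of-ratios scaling, with adjusted p values of 0.234 and 0.0681, and without either Control library. The H3.3 genes H3F3A and H3F3B had log2 fold changes of 0.18 and 0.12 and the centromeric H3 gene CENPA one of 0.25, and H2AFJ one of -0.13; none passed. H3F3C was listed at 0 in every library.

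Of 30 genes for the transcription and 3' end processing of histone mRNA, 11 rose (36.7%, beside 24.0% of all tested genes) and 1 fell (3.33%, beside 13.1%). Some of these rises were not called under every other setting, with adjusted p up to 0.215. SLBP was at 21.86 and 19.58 against 25 and 24.33 FPKM, a log2 fold change of 0.24 (adjusted p = 0.0404) that was not called under quantile, median-of-ratios or equal-sum scaling (adjusted p = 0.107 to 0.173) or without any single library. NPAT, at 4.37, 4.11, 3.56 and 5.26 FPKM, and LSM11, at 1.92, 2.54, 2.48 and 2.62 FPKM, did not pass. The largest rises were SNRPF (log2 fold change 0.84, adjusted p = 1.45e-04) and SNRPD3 (0.68, adjusted p = 3.00e-04), which encode Sm ring proteins shared with splicing snRNPs, and LSM10 (0.66, adjusted p = 3.03e-04), which belongs to the U7 snRNP. NELFE, a subunit of the pausing factor NELF, fell by 0.35 (adjusted p = 0.00551).

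Histone chaperones, which carry new histones to DNA, rose in 13 of 24 cases (54.2%, beside 24.0% of all tested genes) and fell in 1 (4.17%, beside 13.1%). Some of these rises were not called under every other setting, with adjusted p up to 0.168. CHAF1A and CHAF1B, subunits of the CAF-1 complex that deposits H3 and H4 behind the replication fork, rose from 8.94 and 9.26 FPKM to 16.26 and 16.53 FPKM (log2 fold change 0.78, adjusted p = 2.44e-04) and from 6.26 and 6.04 FPKM to 9.57 and 10.12 FPKM (0.60, adjusted p = 0.00185). ASF1B, which hands H3 and H4 to CAF-1, rose from 12.35 and 11.14 FPKM to 20.76 and 19.35 FPKM (0.73, adjusted p = 4.30e-04). HJURP, the chaperone of CENPA, fell by 0.25 (adjusted p = 0.0244), a call that was lost without Control replicate 1 (adjusted p = 0.114), Control replicate 2 (0.175) or siSIRT1 replicate 1 (0.0662).

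Of 38 genes of S phase and DNA replication, 26 rose (68.4%, beside 24.0% of all tested genes) and 0 fell (beside 13.1%), and 12 did not pass. Some of these rises were not called under every other setting, with adjusted p up to 0.174. The largest rises were GINS2 (log2 fold change 1.04, adjusted p = 1.69e-04), FEN1 (0.87, adjusted p = 8.87e-05) and GINS1 (0.81, adjusted p = 4.93e-04). The list medians were 0.20 for the replication-independent histone genes, 0.13 for transcription and processing, 0.26 for the chaperones and 0.41 for S phase, beside -0.36 for the replication-dependent histone genes and 0.07 for all tested genes. The histone members and the genes of replication and histone deposition thus had medians of opposite sign in the same libraries.

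**Figure D5:**
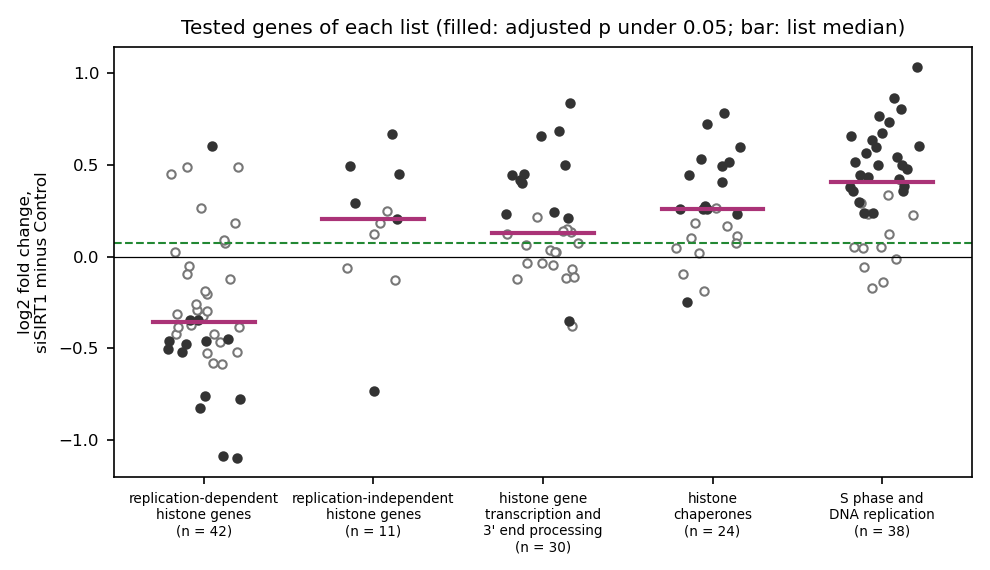
Log2 fold change of siSIRT1 minus Control for every tested gene of 5 lists, with genes that passed the test filled and the list median as a bar. The dashed line is the median of all tested genes at 0.07. The replication-dependent histone genes have a median of -0.36 and the S phase genes of 0.41.

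Over all genes, 2930 were called higher and 1591 lower, and with median-of-ratios scaling 2043 and 2030. The 3 other scalings moved the median log2 fold change of all genes by -0.054 to -0.073, to 0.0016 at the lowest. Of 5 markers of ductal epithelium, KRT8 was at 2164 to 2745 FPKM, KRT18 at 1484 to 1914 FPKM and KRT19 at 313 to 394 FPKM, while EPCAM was at 5.34 to 11.21 FPKM and KRT7 at 2.89 to 4.04 FPKM. Of 10 markers of other cell types 6 were listed and 2 tested: CD68, a lysosomal protein gene, was at 39.09 to 62.96 FPKM, PTPRC at 0.97 to 1.29 FPKM, PECAM1 at 0.59 to 0.75 FPKM and HBB, VWF and PRSS1 at 0 to 0.15 FPKM. CD68 was lower in siSIRT1, and the part of other cells in the histone values was not tested.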

How the data were processed

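RNA was sequenced from PANC-1 cells 48 h after transfection with siRNA against SIRT1 or with controls of a kind not named, 2 libraries per group. The authors deposited a gene table per library with FPKM values. Bowtie2, HISAT, RSEM and ChIPseeker are named in the submitters' processing notes, without roles; the genome build and any poly(A) selection are not given in the sources used here. FPKM values of near-identical copies depend on how the counting divides shared reads.

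Members and gene lists were chosen with earlier results of these data known. log2(FPKM + 1) of the 12191 genes averaging 1 FPKM or more was fitted by limma 3.58.1 in R 4.3.3 with a mean-variance trend, with Benjamini-Hochberg adjustment over all of them and a threshold of 0.05. A fold change on this scale understates the change of low genes. The script was tested on simulated data. Named were SIRT1, every member with a mean of at least 1 FPKM, the 3 highest below it, all replication-independent histone genes, SLBP, NPAT, LSM11, and of each list the called genes with the 3 largest rises and falls. Depth, which the tables do not state, was estimated from the steps of low FPKM values of 51 to 67 short single-exon genes per library. With an effective length 90 bases under the transcript's, it is approximate. Annotation came from GENCODE v44 on GRCh37 and RefSeq on GRCh38.p14. Alternatives were 2 smaller pseudocounts, 2 other filters, 3 scalings, a replicate block, no trend, and leaving out each library; the lone library of a group was then assumed to vary like the other group's.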

Additional observations from a re-analysis of the deposited data

How the results depend on the processing

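6 of the 14 called members (HIST1H1C, HIST1H2AC, HIST1H2AK, HIST2H2BF, HIST1H2BE and HIST1H4C) kept their call under all 9 other settings and without each library. Which members were called changed when a library was left out. The median log2 fold change of the tested members then lay between -0.39 and -0.30. Without a filter on low values HIST3H2A, HIST1H2AM, HIST1H2BC and HIST2H4A with HIST2H4B were not called (adjusted p = 0.0882 to 0.142). In that fit more genes entered both the estimate of the spread and the adjustment. Without the mean-variance trend HIST2H4A with HIST2H4B was not called (adjusted p = 0.0614). HIST3H2BB and HIST1H4D, at 1.40, 1.04, 0.36 and 0 FPKM, were called lower without the filter and with a mean of at least 0.5 FPKM. Both stand for a few estimated reads. Members that did not pass in all 4 libraries together, but did when 1 was left out, were HIST1H1B, HIST1H1E, HIST1H2AG, HIST1H2BN and HIST1H2BO (without Control replicate 1), HIST1H2BG and HIST1H2BM (without Control replicate 2), HIST1H1E, HIST1H2BD, HIST1H2BF, HIST1H4A and HIST1H4K (without siSIRT1 replicate 1), and HIST1H2AL, HIST1H3B and HIST2H3D (without siSIRT1 replicate 2). Over all genes 4521 were called, and 2691 to 4608 without a library, the lowest without Control replicate 2 and 2744 without Control replicate 1. The summed level of siSIRT1, 78.5% of Control, was 75.2% under quantile normalization, 74.1% under median-of-ratios scaling and 75.2% with equal FPKM sums. Median-of-ratios scaling called 17 members, the 14 and HIST1H2AG, HIST1H2BN and HIST1H3B, and equal FPKM sums 16, the 14 and HIST1H2BD and HIST1H3B. Over all genes these scalings called 4073 and 4144, against 4521 without them. Replicate numbers are shared between groups, but the labels do not say that they mark a pair. Deviations from the group means correlated at r = 0.12 between same-numbered libraries over 12191 genes. With the replicate block 24 members were called, the 14 and 10 others, and 21 of the 24 were lower. Over all genes the fit with the block called 5393, with 1908 lower and 3485 higher, against 4521 without it. Among members that did not pass, HIST1H3E turned to -0.0021, -0.028 and -0.014 under quantile, median-of-ratios and equal-sum scaling, HIST1H3C to -0.054 with a pseudocount of 0.1, and NPAT to -0.0016, -0.040 and -0.021 under the same 3 scalings. Signs also changed when a library was left out, with ranges of -0.78 to 0.17 for HIST1H1B, -0.54 to 0.13 for HIST1H2AD, -0.83 to 0.98 for HIST1H2AI, -0.11 to 0.012 for HIST1H2BK, -0.85 to 0.20 for HIST1H2BG, -0.40 to 1.38 for HIST1H2BF, -0.25 to 0.061 for HIST1H3H, -0.49 to 0.11 for HIST1H3D, -0.13 to 0.18 for HIST1H3E, -0.59 to 0.77 for HIST1H3C, -0.27 to 0.028 for HIST1H4B and -0.20 to 0.26 for NPAT. The cause of these changes was not tested. Groups of 2 libraries and few reads per gene limit what can be detected in most members. Among the calls kept throughout, those of HIST1H2AK and HIST1H2BE rested on few estimated reads.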
